A study of Mus musculus with 33 samples.

Results

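The genes described here encode matrix proteases and their inhibitors: the matrix metalloproteinases (Mmp), the secreted ADAMTS proteases (Adamts), their protease-less relatives (Adamtsl) and the tissue inhibitors of metalloproteinases (Timp). They were taken as every gene symbol of the deposited count table that is made of 1 of these 4 family names and a number, which gave 51 of 17982 genes: 23 Mmp, 19 Adamts, 5 Adamtsl and 4 Timp genes. After a filter on low counts 42 could be tested. The other 9 (Mmp1a, Mmp1b, Mmp7, Mmp10, Mmp21, Mmp24, Mmp25, Adamts19 and Adamtsl2) had at most 10 counts in a library and 3 to 41 counts summed over the 9 libraries.

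MMPs are zinc enzymes, made as inactive precursors, that cut collagens, gelatin, proteoglycans and many cell-surface proteins. ADAMTS enzymes cut a narrower set of matrix proteins, mainly the large proteoglycans, procollagens and fibrillin microfibrils, while ADAMTS-like proteins bind the same matrix without cutting it. TIMPs bind the active site of MMPs, and Timp3 also that of several ADAMTS enzymes. In bone these proteins are known for trimming newly made collagen, for clearing matrix ahead of osteoclasts and for keeping the osteocyte canals open.

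The study made induced osteoblasts (iOB) from mouse tail-tip fibroblasts of the Col2.3GFP line, a line whose green fluorescent protein (GFP) is under a fragment of the collagen type I promoter that is active in bone-forming cells. The fibroblasts were passaged, frozen, exposed for 24 hours to lentivirus carrying a transcription factor gene (not named in the labels), split on day 3 and given osteogenic medium starting on day 5. When they were harvested is not given in the sources used here. Poly-A RNA was sequenced from 3 iOB libraries, 3 libraries of osteoblasts grown from calvarial progenitor cells (calvarial-OB, titled dataset 2) and 3 libraries of the tail-tip fibroblasts. The fraction of iOB sorted for GFP (iOB GFP+, 3 libraries) enters through a table of the authors' own comparison with fibroblasts. Ages, the genotype of the calvarial cells and whether libraries of a group came from separate animals or cultures are not given in the sources used here, so the p-values measure the spread between these libraries, which may be technical. No group with virus or medium alone was listed, and in the comparisons of calvarial-OB the cell type and the dataset cannot be told apart.

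Depth was 5646299 to 15023771 counts per library. Values are given as CPM (counts per 1000000 counts of the library size after TMM, a scaling between libraries). CPM are not corrected for gene length and so are compared between libraries and not between genes. Replicates correlated at 0.967 to 0.991 in log CPM over genes. Fibroblast replicate 1 stood apart from the other fibroblast libraries: the ribosomal precursor Rn45s took 2.27% of its counts, against 8.39% and 10.9%. Calvarial-OB replicate 1 had the lowest correlations, 0.97 and 0.967 with replicates 2 and 3 of its group, which correlated at 0.985 with each other. All 11 osteoblast markers measured were higher in iOB and in calvarial-OB than in fibroblasts. The marker counts here stand beside shares over all tested genes. Against fibroblasts these were 22.7% higher and 20.6% lower in iOB, and 28.4% higher and 27.4% lower in calvarial-OB. In iOB against calvarial-OB they were 24.7% higher and 24.1% lower. The summed level of 10 fibroblast markers was 9182 to 10397 CPM in iOB, 10905 to 11363 CPM in calvarial-OB and 28031 to 32144 CPM in fibroblasts. Single fibroblast markers went both ways: 3 were higher and 7 lower in iOB, and 3 higher and 6 lower in calvarial-OB, than in fibroblasts. Both osteoblast cultures also held macrophage RNA: 15 of 15 tested macrophage markers were higher in each than in fibroblasts, with a summed level of 2270.0 to 3642 CPM in iOB, 3534 to 6621 CPM in calvarial-OB and 42.8 to 87.2 CPM in fibroblasts. The summed level of the chondrocyte list was highest in fibroblasts, at 609 to 988 CPM. It was 132 to 175 CPM in iOB and 296 to 547 CPM in calvarial-OB. In fibroblasts most of this sum was Col2a1. Single chondrocyte markers went both ways: of 9 tested, 3 were higher and 3 lower than in fibroblasts in each culture. The median log2 fold change of the 9 was 0.82 in iOB and 0.30 in calvarial-OB. Adipocyte markers set calvarial-OB apart from both other groups: 7 of 7 tested were lower in iOB than in calvarial-OB, and against fibroblasts 6 were higher and 1 lower in iOB and 7 were higher in calvarial-OB. Their 8 genes summed to 284 to 340.4 CPM in iOB, 1121 to 1827 CPM in calvarial-OB and 130.4 to 144 CPM in fibroblasts, with Lep at 0 in iOB and Adipoq, Cfd, Cidec and Lep at 0 in fibroblasts, and their part in the members that were highest in calvarial-OB was not tested. In such bulk samples fewer cells of a type and less RNA per cell cannot be told apart.

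Genes were called at a Benjamini-Hochberg adjusted p below 0.05 in edgeR's quasi-likelihood test, with p adjusted over all 13438 tested genes. In iOB against fibroblasts 18 of the 42 tested members were higher, 5 were lower and 19 were not called. That is 54.8% called, beside 43.3% of all tested genes, of which 22.7% were higher and 20.6% lower. In calvarial-OB against fibroblasts 17 members were higher, 15 lower and 10 not called, or 76.2% called beside 55.8% of all tested genes, of which 28.4% were higher and 27.4% lower. Set directly against calvarial-OB, iOB were higher in 18 members, lower in 8 and not called in 16, or 61.9% called beside 48.8% of all tested genes, of which 24.7% were higher and 24.1% lower. The median log2 fold change of the tested members was 0.26 in iOB against fibroblasts, 0.32 in calvarial-OB against fibroblasts and 0.48 in iOB against calvarial-OB, beside medians over all tested genes of -0.04, 0.02 and -0.03.

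The 3 libraries of each group did not overlap for 26 members in iOB against fibroblasts, for 29 in calvarial-OB against fibroblasts and for 29 in iOB against calvarial-OB. These are 61.9%, 69.0% and 69.0% of the tested members, beside 63.0%, 60.5% and 55.5% of all tested genes. All 51 genes together took 0.752% to 0.764% of the counts in iOB, 0.501% to 0.519% in calvarial-OB and 0.564% to 0.598% in fibroblasts. The summed Mmp level was 3074 to 3136 CPM in iOB, 1882 to 2186 CPM in calvarial-OB and 2443 to 2511 CPM in fibroblasts, and the groups did not overlap. Mmp2 alone held 1548 to 1597 CPM of this sum in iOB, 774 to 935 CPM in calvarial-OB and 828 to 973 CPM in fibroblasts. The sum therefore does not describe the family as a whole.

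The members higher in iOB than in fibroblasts were Mmp2, Mmp8, Mmp9, Mmp12, Mmp20, Mmp23, Mmp28, Adamts2, Adamts3, Adamts4, Adamts9, Adamts15, Adamts16, Adamts17, Adamtsl1, Adamtsl5, Timp1 and Timp4, and the lower ones were Mmp11, Mmp13, Mmp19, Adamts7 and Adamts12. In calvarial-OB against the same fibroblast libraries the higher ones were Mmp8, Mmp12, Mmp16, Mmp23, Mmp27, Adamts2, Adamts5, Adamts8, Adamts9, Adamts10, Adamts15, Adamts17, Adamts18, Adamts20, Adamtsl1, Adamtsl5 and Timp4. The lower ones there were Mmp3, Mmp11, Mmp13, Mmp14, Mmp19, Adamts3, Adamts6, Adamts7, Adamts12, Adamts13, Adamts16, Adamtsl3, Adamtsl4, Timp2 and Timp3. Directly against calvarial-OB, the members higher in iOB were Mmp2, Mmp3, Mmp9, Mmp14, Mmp19, Mmp20, Adamts3, Adamts4, Adamts6, Adamts9, Adamts13, Adamts16, Adamts17, Adamtsl1, Adamtsl3, Adamtsl5, Timp2 and Timp3, and the lower ones were Mmp16, Mmp27, Adamts1, Adamts5, Adamts8, Adamts10, Adamts15 and Adamts18. Mmp15, Mmp17 and Adamts14 were called in none of the 3 comparisons.

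**Figure D1:**
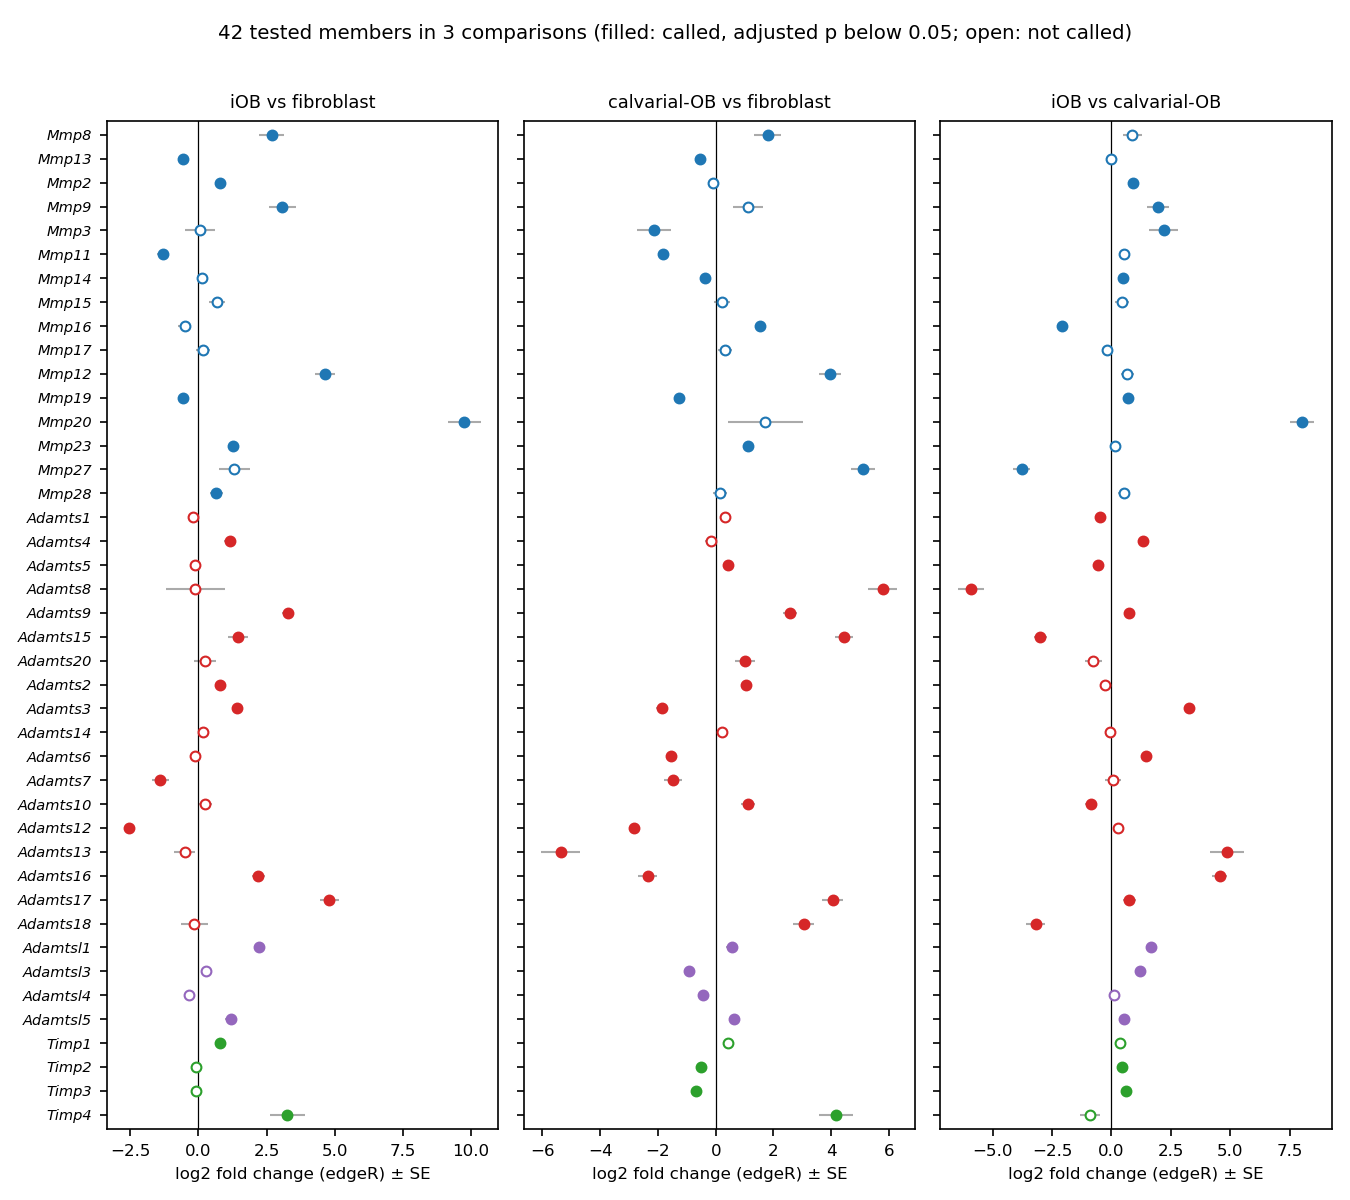
edgeR log2 fold changes (x axes, with bars of 1 SE) of the 42 tested members in iOB against fibroblasts, calvarial-OB against fibroblasts and iOB against calvarial-OB. Genes run down the page by role (Mmp blue, Adamts red, Adamtsl purple, Timp green), and filled points passed an adjusted p of 0.05: 23, 32 and 26 of them. The fitted values of Mmp20, Adamts8 and Adamts13 rest on groups with few or no counts and are no measure of size.

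In all, 10 Mmp genes follow one another on mouse chromosome 9 with no other coding gene between them, in the order Mmp13, Mmp12, Mmp1b, Mmp3, Mmp1a, Mmp10, Mmp8, Mmp27, Mmp20 and Mmp7 (RefSeq gene order, GRCm38). Neighbours in this run had unlike patterns: Mmp20 was high in iOB, Mmp27 in calvarial-OB, Mmp12 in both, and Mmp13 was lower in both than in fibroblasts. The 250 bases before the start of these 4 genes (RefSeq, GRCm38.p6, plus strand, 5′ to 3′) are shown because the 4 genes differ in pattern within one neighbourhood. Capitals mark matches on either strand to ACCACA, the core letters bound by RUNX factors, to TGANTCA, an AP-1 site, and to TAATTA, a homeodomain core bound by Dlx factors; none of these motifs overlap here.
Mmp13, chr9:7272264-7272513: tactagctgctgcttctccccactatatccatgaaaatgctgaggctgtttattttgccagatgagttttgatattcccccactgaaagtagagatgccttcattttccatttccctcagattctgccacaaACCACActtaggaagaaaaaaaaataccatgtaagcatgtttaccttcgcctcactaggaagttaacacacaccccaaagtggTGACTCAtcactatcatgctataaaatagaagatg
Mmp12, chr9:7344147-7344396: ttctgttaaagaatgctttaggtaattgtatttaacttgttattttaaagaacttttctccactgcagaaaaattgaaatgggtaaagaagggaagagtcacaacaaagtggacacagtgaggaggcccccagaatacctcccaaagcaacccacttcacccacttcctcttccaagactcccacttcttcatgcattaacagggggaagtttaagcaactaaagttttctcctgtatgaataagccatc
Mmp27, chr9:7571146-7571395: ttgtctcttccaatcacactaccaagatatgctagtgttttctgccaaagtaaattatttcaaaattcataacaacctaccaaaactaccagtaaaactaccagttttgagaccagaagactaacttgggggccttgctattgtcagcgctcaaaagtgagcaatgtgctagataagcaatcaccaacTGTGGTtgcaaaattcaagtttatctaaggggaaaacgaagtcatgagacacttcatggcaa
Mmp20, chr9:7627981-7628230: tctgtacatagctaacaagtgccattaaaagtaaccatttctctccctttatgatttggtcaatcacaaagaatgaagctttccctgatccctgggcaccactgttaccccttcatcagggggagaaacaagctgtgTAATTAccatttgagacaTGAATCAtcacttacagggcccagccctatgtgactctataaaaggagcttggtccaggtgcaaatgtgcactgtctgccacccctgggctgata

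The Mmp13 window holds ACCACA starting at -118 and TGACTCA at -35 from the RefSeq start, the Mmp20 window TAATTA at -113 and TGAATCA at -95, and the Mmp27 window TGTGGT, the RUNX letters read on the other strand, at -62. The Mmp12 window holds none of the 3. Over the 36 members with an entry among 27025 promoters of this length, the AP-1 letters were in 7 (19.4%, beside 6.86% of all promoters), all 7 of them in the chromosome 9 run. The RUNX letters were in 5 (13.9%, beside 14.2%) and the TAATTA letters in 2 (5.56%, beside 4.91%). A match of letters is a description and says nothing of binding.

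Mmp20 (enamelysin, best known for processing enamel proteins in developing teeth) had 10.7, 10.3 and 14.2 CPM in iOB, 0, 0 and 0.0650 CPM in calvarial-OB and 0, 0 and 0 CPM in fibroblasts. Every iOB library was above every other library, with 248 counts summed over iOB, 1 over calvarial-OB and 0 over fibroblasts. That is at least 114.6-fold higher in iOB than in fibroblasts, taking 3 counts over the group as the floor, and a ratio of 367.5 to calvarial-OB (95% Clopper-Pearson interval 65.36 to 14570, counting error only). Both comparisons were called (edgeR adjusted p = 1.15e-06 and 1.54e-06). The bound against fibroblasts was 73.65 without fibroblast replicate 1 and 68.12 without replicate 3, and against calvarial-OB it was at least 63.29 without calvarial-OB replicate 3, which held the single count.

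Mmp27, a little-studied MMP, was instead highest in calvarial-OB, with 0.906, 0.916 and 1.31 CPM in iOB, 19.3, 11.0 and 12.7 CPM in calvarial-OB and 0.753, 0.283 and 0.166 CPM in fibroblasts. All calvarial-OB libraries lay above all others, giving log2 fold changes of 5.10 ± 0.40 (SE) in calvarial-OB against fibroblasts and -3.78 ± 0.37 in iOB against calvarial-OB (edgeR adjusted p = 7.84e-07 and 8.53e-06). In iOB against fibroblasts it was not called (1.32 ± 0.57, edgeR adjusted p = 0.0817), but it was without fibroblast replicate 1 (2.21, adjusted p = 0.0193) or calvarial-OB replicate 1 (1.35, adjusted p = 0.0454). Without fibroblast replicate 1 the calvarial-OB value was 6.00.

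Mmp12 is macrophage elastase, an enzyme made chiefly by macrophages. It had 22.4, 18.2 and 18.3 CPM in iOB, 17.1, 8.33 and 11.6 CPM in calvarial-OB and 1.32, 0.566 and 0.415 CPM in fibroblasts, and each of the 3 groups was separate from the other groups. Log2 fold changes were 4.64 ± 0.37 (SE) in iOB and 3.97 ± 0.38 in calvarial-OB against fibroblasts (edgeR adjusted p = 1.73e-06 and 3.52e-06), and 5.33 and 4.66 without fibroblast replicate 1. Macrophage markers were also higher in both cultures than in fibroblasts. Their summed level was 2270.0, 3525 and 3642 CPM in iOB replicates 1 to 3. It was 6621, 3534 and 4045 CPM in calvarial-OB and 87.2, 57.3 and 42.8 CPM in fibroblasts. Mmp12 was highest in the iOB library with the lowest macrophage sum and, among calvarial-OB, in the library with the highest; the part of macrophages in the result was not tested. Between iOB and calvarial-OB, Mmp12 was not called (0.67 ± 0.26, edgeR adjusted p = 0.0523), but it was without calvarial-OB replicate 1 (0.99, adjusted p = 0.00277), fibroblast replicate 1 (0.67, 0.0328) or fibroblast replicate 3 (0.70, 0.0478), with no filter (0.0457), in DESeq2 (0.0492) or with the 2 groups fitted alone (0.0455).

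**Figure D2:**
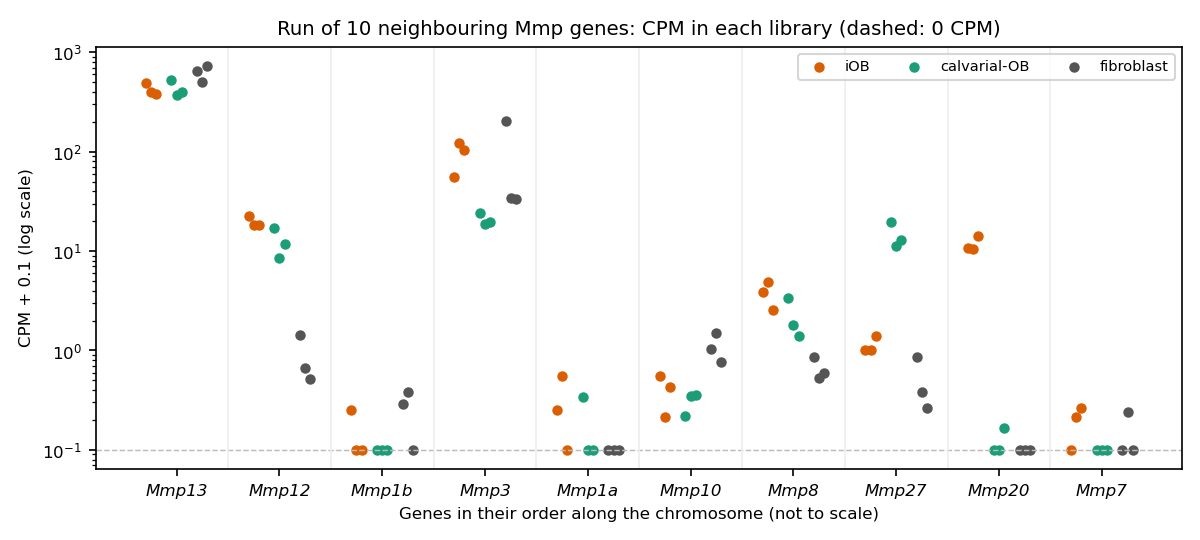
CPM plus 0.1 on a log axis (y) of the 10 neighbouring Mmp genes in each library, in their order along chromosome 9 (x, not to scale); each point is 1 library of iOB, calvarial-OB or fibroblasts. Mmp20 points of iOB lie above 10 CPM while all others lie at or near 0, Mmp27 is highest in calvarial-OB, and Mmp1b, Mmp1a and Mmp7 lie near 0 throughout.

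The collagenases cut the triple helix of fibrillar collagen, and Mmp13 is the main one of rodent bone and a known target of RUNX2 and AP-1. Mmp13, whose promoter is shown above, had 486, 396 and 376 CPM in iOB, 522, 373 and 394 CPM in calvarial-OB and 646, 498 and 723 CPM in fibroblasts. All iOB libraries lay below all fibroblast libraries, while calvarial-OB overlapped fibroblasts. It was lower in iOB (-0.57 ± 0.17 SE, edgeR adjusted p = 0.0156) and in calvarial-OB (-0.53 ± 0.17, 0.0162) than in fibroblasts. The iOB call was lost without fibroblast replicate 3, iOB replicate 2 or iOB replicate 3 (adjusted p = 0.11, 0.0562 and 0.068), and the calvarial-OB call without fibroblast replicate 3, calvarial-OB replicate 2 or calvarial-OB replicate 3 (0.0937, 0.0847 and 0.0714).

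Mmp8, the collagenase stored in neutrophil granules, was higher in both cultures, at 3.68 ± 1.18 CPM in iOB, 2.09 ± 1.04 CPM in calvarial-OB and 0.558 ± 0.172 CPM in fibroblasts (SD, n = 3 each). Its log2 fold changes were 2.69 ± 0.46 (SE) in iOB and 1.80 ± 0.48 in calvarial-OB against fibroblasts (edgeR adjusted p = 0.000542 and 0.00667). Neutrophil markers were near 0 in every group. The 5 of 9 listed markers in the table summed to 0.163 to 0.453 CPM in iOB. In calvarial-OB the sum was 0.484 to 1.22 CPM and in fibroblasts 0.425 to 1.51 CPM. Ltf and Camp were at 0 in iOB, Ngp in calvarial-OB, and Mpo, Ltf and Ngp in fibroblasts. The part of neutrophils in the Mmp8 result was not tested. Mmp1a and Mmp1b, the rodent counterparts of human MMP1, were at or near 0, with at most 0.458 CPM in an iOB library, 0.242 CPM in a calvarial-OB library and 0.283 CPM in a fibroblast library.

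The gelatinases cut denatured collagen and the type IV collagen of basement membranes. Mmp2, which is activated at the cell surface by Mmp14 together with Timp2, had 1548, 1594 and 1597 CPM in iOB, 809, 935 and 774 CPM in calvarial-OB and 907, 973 and 828 CPM in fibroblasts. The iOB libraries lay above all others, and calvarial-OB overlapped fibroblasts. Mmp2 was higher in iOB than in fibroblasts (0.81 ± 0.11 SE, edgeR adjusted p = 7.14e-05) and than in calvarial-OB (0.91 ± 0.11, 3.05e-05), and was not called in calvarial-OB against fibroblasts (-0.10 ± 0.10, 0.418).

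Mmp9 (gelatinase B), in bone best known from osteoclasts, had 12.7, 37.8 and 38.1 CPM in iOB, 9.43, 7.22 and 6.24 CPM in calvarial-OB and 6.68, 1.56 and 1.91 CPM in fibroblasts. The iOB libraries lay above all others, with iOB replicate 1 far below the other two, and fibroblast replicate 1 was the highest of its group. It was higher in iOB than in fibroblasts (3.08 ± 0.50 SE, edgeR adjusted p = 0.00038) and than in calvarial-OB (1.97 ± 0.46, 0.00396). In calvarial-OB against fibroblasts it was not called (1.11 ± 0.52, 0.0904), but it was without fibroblast replicate 1 (2.08, adjusted p = 0.00626) or iOB replicate 1 (1.11, 0.0417); without fibroblast replicate 1 the iOB value was 4.05. The 9 osteoclast markers summed to 262 to 290.5 CPM in iOB, 337 to 368 CPM in calvarial-OB and 125 to 182 CPM in fibroblasts, with none at 0. Ctsk alone held 215 to 221 CPM of this sum in iOB and 261 to 293 CPM in calvarial-OB. In fibroblasts Ctsk held 110 to 158 CPM. Of the 5 markers tested, 4 were higher in iOB and 5 in calvarial-OB than in fibroblasts, beside 22.7% and 28.4% of all tested genes. The macrophage sum was lowest in iOB replicate 1, the iOB library with the lowest Mmp9, while every calvarial-OB library, at 3534 to 6621 CPM of macrophage markers, had less Mmp9 than any iOB library; the part of these cells in the Mmp9 result was not tested.

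Stromelysins cut proteoglycans and activate other MMPs. Mmp3 (stromelysin-1) had 56.0, 123 and 103 CPM in iOB, 23.8, 18.6 and 19.3 CPM in calvarial-OB and 202, 34.4 and 33.1 CPM in fibroblasts, so fibroblast replicate 1 was the highest of the 9 libraries and the other fibroblast libraries were between calvarial-OB and iOB. Mmp3 was lower in calvarial-OB than in fibroblasts (-2.13 ± 0.60 SE, edgeR adjusted p = 0.00969) and higher in iOB than in calvarial-OB (2.20 ± 0.60, 0.0103). One library decided its other value: in iOB against fibroblasts it was 0.06 ± 0.56 and not called (adjusted p = 0.941), but 1.48 and called without fibroblast replicate 1 (0.00139), which also moved the calvarial-OB value to -0.72 (0.0426).

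Mmp11 (stromelysin-3), unlike most MMPs activated inside the cell by furin, had 23.9, 24.4 and 22.7 CPM in iOB, 19.95, 14.7 and 15.5 CPM in calvarial-OB and 40.3, 68.6 and 67.7 CPM in fibroblasts. Fibroblasts lay above both cultures without overlap, giving -1.31 ± 0.20 (SE) in iOB and -1.82 ± 0.20 in calvarial-OB (edgeR adjusted p = 0.000206 and 1.05e-05). Between the cultures it was not called (0.51 ± 0.20, 0.0565), but it was without fibroblast replicate 1 (adjusted p = 0.0113) or calvarial-OB replicate 1 (0.0153), with no filter (0.0475) or with the 2 groups fitted alone (0.0263). Mmp10 (stromelysin-2) was too low to test, at 0.115 to 0.453 CPM in iOB, 0.121 to 0.260 CPM in calvarial-OB and 0.663 to 1.42 CPM in fibroblasts.

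Of the 6 membrane-type MMPs 4 could be tested, and none was called in iOB against fibroblasts, beside 43.3% of all tested genes. Mmp14 (MT1-MMP), the main activator of Mmp2 and a collagenase in its own right, had 655, 643 and 629 CPM in iOB, 404, 537 and 419.8 CPM in calvarial-OB and 497, 659 and 616 CPM in fibroblasts. The iOB libraries were all above those of calvarial-OB, and both overlapped fibroblasts. Mmp14 was higher in iOB than in calvarial-OB (0.50 ± 0.13 SE, edgeR adjusted p = 0.00841). Its lower level in calvarial-OB than in fibroblasts (-0.38 ± 0.13, 0.0284) was not called without fibroblast replicate 2, fibroblast replicate 3, calvarial-OB replicate 1 or calvarial-OB replicate 3 (adjusted p = 0.11, 0.0751, 0.0571 and 0.0717), with upper-quartile scaling (0.0762) or with the 2 groups fitted alone (0.0525).

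Mmp16 (MT3-MMP) had 4.38, 6.76 and 5.39 CPM in iOB, 19.0, 25.8 and 25.0 CPM in calvarial-OB and 9.04, 9.06 and 5.97 CPM in fibroblasts, with calvarial-OB above all other libraries. Its log2 fold changes were 1.55 ± 0.21 (SE) in calvarial-OB against fibroblasts and -2.06 ± 0.22 in iOB against calvarial-OB (edgeR adjusted p = 5.56e-05 and 1.81e-05). In iOB against fibroblasts it was -0.51 ± 0.23 (0.0993), and -0.66 and called without fibroblast replicate 3 (0.0414). Mmp15 and the GPI-anchored Mmp17 averaged 8.24 ± 2.06 and 11.0 ± 1.99 CPM in iOB, 6.13 ± 1.84 and 12.6 ± 3.93 CPM in calvarial-OB and 5.20 ± 1.30 and 9.85 ± 1.14 CPM in fibroblasts (SD, n = 3 each). Mmp24 and Mmp25 stayed at or below 0.282 CPM in every library.

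Among the remaining MMPs, Mmp23, a short membrane-anchored form, had 199, 189.9 and 186 CPM in iOB, 182, 187 and 148 CPM in calvarial-OB and 85.6, 81.2 and 71.9 CPM in fibroblasts. Both cultures lay above fibroblasts without overlap (1.27 ± 0.12 SE in iOB and 1.12 ± 0.12 in calvarial-OB, edgeR adjusted p = 4.79e-06 and 7.43e-06). Mmp19, a secreted MMP of many tissues, had 60.4, 59.4 and 55.2 CPM in iOB, 32.9, 38.3 and 37.6 CPM in calvarial-OB and 90.9, 93.5 and 78.0 CPM in fibroblasts. All 3 groups were separate, with fibroblasts highest and calvarial-OB lowest (-0.58 ± 0.11 in iOB and -1.27 ± 0.11 in calvarial-OB against fibroblasts, 0.68 ± 0.11 in iOB against calvarial-OB; edgeR adjusted p = 0.000979, 1.57e-06 and 0.000333). Mmp28 (epilysin) had 9.21, 8.93 and 7.19 CPM in iOB, 7.74, 6.37 and 4.10 CPM in calvarial-OB and 5.65, 5.38 and 5.22 CPM in fibroblasts, with iOB above fibroblasts and calvarial-OB overlapping both. Its iOB call (0.64 ± 0.24, edgeR adjusted p = 0.0463) sat near the threshold and was lost without any 1 of 7 libraries (fibroblast replicates 1 to 3, iOB replicates 1 to 3 and calvarial-OB replicate 2, adjusted p = 0.0516 to 0.129) and in DESeq2 (0.0618). Against calvarial-OB it was not called (0.51 ± 0.24, 0.0952), but it was without calvarial-OB replicate 1 (0.79, 0.0108).

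**Figure D3:**
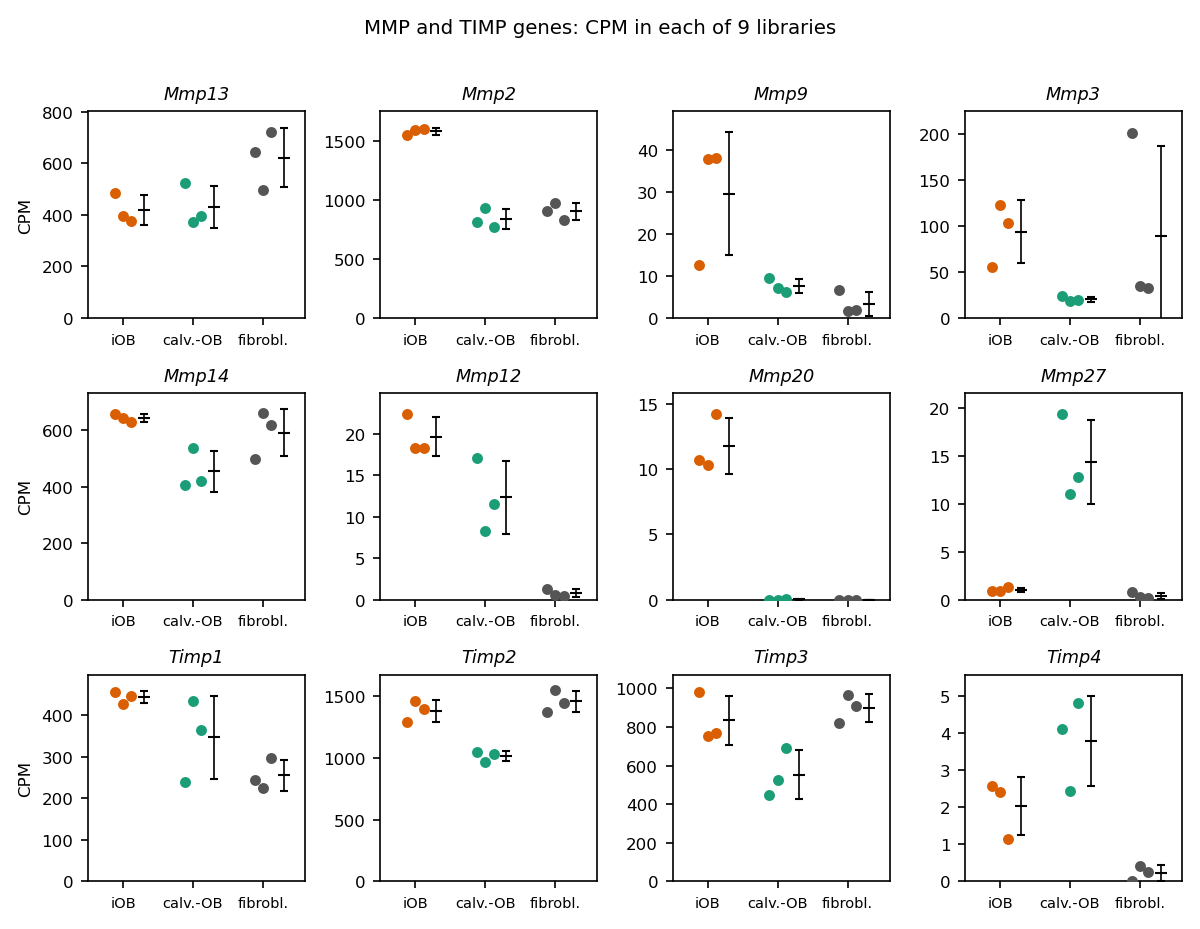
CPM (y axes, linear from 0) of 8 Mmp and the 4 Timp genes in iOB, calvarial-OB and fibroblasts; each point is 1 library, and the bar beside it gives the mean ± SD of 3. Mmp2 is highest in the 3 iOB libraries, fibroblast replicate 1 stands alone for Mmp3 at 202 CPM (its SD bar runs below the axis), Mmp20 is seen in iOB, and Timp2 is lowest in calvarial-OB.

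Of the 7 proteoglycan-cutting ADAMTS enzymes, which cleave versican and aggrecan, 3 were higher and none lower in iOB than in fibroblasts, or 42.9% called beside 43.3% of all tested genes. In calvarial-OB 5 were higher and none lower, or 71.4% beside 55.8% (median log2 fold changes 0.25 and 1.02, beside -0.04 and 0.02 over all tested genes). In the authors' deposited table for iOB GFP+ 3 of them were higher and 2 lower, beside 23.7% of all genes higher and 21.7% lower. Adamts9, a versican-cutting enzyme that also acts at the base of cilia, had 99.2, 61.2 and 71.3 CPM in iOB, 52.2, 45.7 and 42.7 CPM in calvarial-OB and 9.98, 8.49 and 5.39 CPM in fibroblasts. The 3 groups were separate, with iOB highest (3.29 ± 0.23 SE in iOB and 2.57 ± 0.23 in calvarial-OB against fibroblasts, edgeR adjusted p = 7e-07 and 2.17e-06). The direct difference (0.72 ± 0.20, 0.0112) was not called without iOB replicate 1 (0.50, 0.0639).

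Adamts4, an aggrecanase, had 88.8, 66.1 and 76.2 CPM in iOB, 42.6, 27.7 and 22.9 CPM in calvarial-OB and 28.3, 42.5 and 33.3 CPM in fibroblasts. The iOB libraries were above all others, at 1.16 ± 0.22 (SE) against fibroblasts and 1.32 ± 0.22 against calvarial-OB (edgeR adjusted p = 0.00109 and 0.000413), while calvarial-OB overlapped fibroblasts (-0.16 ± 0.22, 0.549) and was called lower only without calvarial-OB replicate 1 among the single libraries left out (-0.47, 0.0341). Adamts5, the other main aggrecanase, had 177, 167 and 143 CPM in iOB, 281, 189 and 257 CPM in calvarial-OB and 195, 161 and 181 CPM in fibroblasts. Its higher level in calvarial-OB than in fibroblasts (0.44 ± 0.15, edgeR adjusted p = 0.0244, groups overlapping) was lost without any of 4 libraries, fibroblast replicates 2 and 3 and calvarial-OB replicates 1 and 3 (0.108, 0.0633, 0.0785 and 0.0679). Adamts1, its neighbour on chromosome 16, averaged 113 ± 8.47 CPM in iOB, 159 ± 25.6 CPM in calvarial-OB and 129 ± 18.2 CPM in fibroblasts (SD, n = 3 each). Both neighbours were lower in iOB than in calvarial-OB (-0.58 ± 0.15 SE for Adamts5 and -0.50 ± 0.14 for Adamts1, edgeR adjusted p = 0.00704 and 0.0125).

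Adamts15 and Adamts8, neighbours on chromosome 9 with no coding gene between them, were both highest in calvarial-OB. Adamts15, a versican-cutting enzyme, had 3.78, 3.89 and 2.45 CPM in iOB, 30.8, 32.8 and 18.9 CPM in calvarial-OB and 1.79, 0.849 and 0.995 CPM in fibroblasts, and its 3 groups were separate. It was higher in iOB (1.46 ± 0.38 SE) and more so in calvarial-OB (4.45 ± 0.31) than in fibroblasts, and lower in iOB than in calvarial-OB (-2.99 ± 0.28; edgeR adjusted p = 0.00804, 3.42e-07 and 6.66e-06). Adamts8 had 0.151, 0.115 and 0 CPM in iOB, 7.01, 6.73 and 5.40 CPM in calvarial-OB and 0.188, 0.142 and 0 CPM in fibroblasts, that is 2 counts summed in iOB, 196 in calvarial-OB and 3 in fibroblasts. The count ratio of calvarial-OB to fibroblasts was 61.1 (95% Clopper-Pearson interval 20.6 to 298.8) and to iOB 66.13 (18.06 to 549.9), and both comparisons were called (edgeR adjusted p = 1.72e-06 and 6.45e-06). The ratio to fibroblasts was 117.8 without fibroblast replicate 1 and 36.33 without fibroblast replicate 3. Adamts20 averaged 1.30 ± 0.0836 CPM in iOB, 2.29 ± 0.724 CPM in calvarial-OB and 1.13 ± 0.345 CPM in fibroblasts (SD, n = 3 each) and was called in calvarial-OB against fibroblasts (1.02 ± 0.35 SE, edgeR adjusted p = 0.0279).

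The procollagen N-proteinases remove the amino-terminal propeptide so that collagen can assemble into fibrils. Adamts2, the main one for collagen type I, had 239, 198 and 200.2 CPM in iOB, 279, 263 and 225 CPM in calvarial-OB and 109, 136 and 127 CPM in fibroblasts. Both cultures lay above fibroblasts without overlap (0.78 ± 0.13 SE in iOB and 1.05 ± 0.13 in calvarial-OB, edgeR adjusted p = 0.000371 and 2.38e-05). Between the cultures it was not called (-0.27 ± 0.12, 0.0942), but it was without calvarial-OB replicate 3 (-0.33, 0.0443) and with upper-quartile scaling (-0.35, 0.0357).

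Adamts3, also known for activating the lymphatic growth factor VEGF-C, had 26.3, 27.5 and 21.7 CPM in iOB, 2.42, 2.69 and 2.67 CPM in calvarial-OB and 11.2, 10.3 and 7.21 CPM in fibroblasts. All 3 groups were separate, with iOB highest and calvarial-OB lowest. It was higher in iOB (1.40 ± 0.18 SE) and lower in calvarial-OB (-1.87 ± 0.21) than in fibroblasts, and the direct difference was 3.27 ± 0.21 (edgeR adjusted p = 6.44e-05, 1.58e-05 and 3.79e-07). Adamts14, the third of these enzymes, averaged 21.8 ± 3.91 CPM in iOB, 22.8 ± 4.22 CPM in calvarial-OB and 19.3 ± 3.63 CPM in fibroblasts (SD, n = 3 each) and was not called.

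Of the other ADAMTS enzymes, Adamts17, which in humans is linked to a short-stature connective tissue syndrome of fibrillin microfibrils, had 36.6, 20.2 and 21.2 CPM in iOB, 20.9, 14.1 and 11.5 CPM in calvarial-OB and 0.847, 1.13 and 0.829 CPM in fibroblasts. Both cultures lay above all fibroblast libraries and overlapped each other (4.81 ± 0.36 SE in iOB and 4.05 ± 0.37 in calvarial-OB against fibroblasts, edgeR adjusted p = 1.05e-06 and 2.31e-06). The direct difference (0.76 ± 0.26, 0.0287) was not called without iOB replicate 1 (0.43, 0.169), calvarial-OB replicate 2 (0.71, 0.0839) or calvarial-OB replicate 3 (0.58, 0.106). Adamts10, its relative in the same human syndrome, was highest in calvarial-OB, at 42.3, 56.1 and 49.5 CPM in iOB, 127, 85.1 and 58.8 CPM in calvarial-OB and 46.5, 42.7 and 35.2 CPM in fibroblasts. Calvarial-OB lay above both other groups (1.12 ± 0.23 SE against fibroblasts, and -0.86 ± 0.23 in iOB against calvarial-OB; edgeR adjusted p = 0.00141 and 0.0088).

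Adamts16 and Adamts18 are close relatives that moved apart. Adamts16, which can cut fibronectin, had 23.4, 18.4 and 19.9 CPM in iOB, 1.09, 0.980 and 0.650 CPM in calvarial-OB and 4.05, 6.51 and 3.23 CPM in fibroblasts, and the 3 groups were separate with iOB highest and calvarial-OB lowest. It was higher in iOB (2.20 ± 0.25 SE) and lower in calvarial-OB (-2.35 ± 0.33) than in fibroblasts, with a direct difference of 4.55 ± 0.30 (edgeR adjusted p = 2.11e-05, 8.85e-05 and 5.72e-07). Adamts18 had 0.604, 1.49 and 0.490 CPM in iOB, 7.26, 11.4 and 6.89 CPM in calvarial-OB and 1.41, 0.991 and 0.663 CPM in fibroblasts: calvarial-OB lay above all others, and iOB overlapped fibroblasts. It was higher in calvarial-OB than in fibroblasts (3.04 ± 0.38, edgeR adjusted p = 3.03e-05) and lower in iOB than in calvarial-OB (-3.19 ± 0.40, 5.96e-05), the last being -3.91 without iOB replicate 2.

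Adamts12 and Adamts7 form a pair that cuts COMP, a cartilage and tendon matrix protein. Adamts12 had 35.2, 45.1 and 43.5 CPM in iOB, 34.6, 32.9 and 34.1 CPM in calvarial-OB and 190.1, 258 and 281 CPM in fibroblasts, so every fibroblast library was above every library of either culture (-2.56 ± 0.15 SE in iOB and -2.84 ± 0.15 in calvarial-OB, edgeR adjusted p = 2.29e-07 and 5.33e-08). Adamts7 had 9.82, 9.28 and 7.19 CPM in iOB, 12.1, 8.57 and 5.14 CPM in calvarial-OB and 32.5, 21.5 and 15.6 CPM in fibroblasts and was lower in iOB (-1.40 ± 0.32 SE) and calvarial-OB (-1.47 ± 0.31) than in fibroblasts (edgeR adjusted p = 0.00392 and 0.00174). The chondrocyte sum given above was also highest in fibroblasts, where Col2a1 made up 511 to 849 CPM of it, while 3 of 9 tested markers were lower and 3 higher in iOB than in fibroblasts and Matn1 was at 0 in both. The sum was 609, 785 and 988 CPM in fibroblast replicates 1 to 3. Adamts12 had the same order within fibroblasts, and Adamts7 had the opposite order. In iOB every sum was below those of calvarial-OB, and Adamts12 was 0.29 ± 0.15 against calvarial-OB and not called (edgeR adjusted p = 0.14). The part of chondrocyte RNA in these results was not tested. Adamts6, an enzyme of fibrillin microfibrils, had 21.1, 21.2 and 23.4 CPM in iOB, 9.43, 8.33 and 6.83 CPM in calvarial-OB and 24.9, 20.5 and 26.0 CPM in fibroblasts; calvarial-OB lay below both other groups (-1.56 ± 0.16 SE against fibroblasts, and 1.43 ± 0.16 in iOB against calvarial-OB, edgeR adjusted p = 5.51e-06 and 2.31e-05).

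Adamts13, which cuts von Willebrand factor in blood, was low throughout, at 1.06 to 1.49 CPM in iOB, 0 to 0.0650 CPM in calvarial-OB and 1.24 to 2.35 CPM in fibroblasts. It had 28, 1 and 54 counts summed over the same 3 groups. The count ratio was 41.49 for iOB to calvarial-OB (95% Clopper-Pearson interval 6.86 to 1697) and 57.74 for fibroblasts to calvarial-OB (9.933 to 2322), both called (edgeR adjusted p = 0.000189 and 2.87e-05). Without calvarial-OB replicate 3, which held the single count, these were at least 7.146-fold and at least 9.944-fold. Adamts19 had no counts in either culture and at most 0.166 CPM in a fibroblast library.

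**Figure D4:**
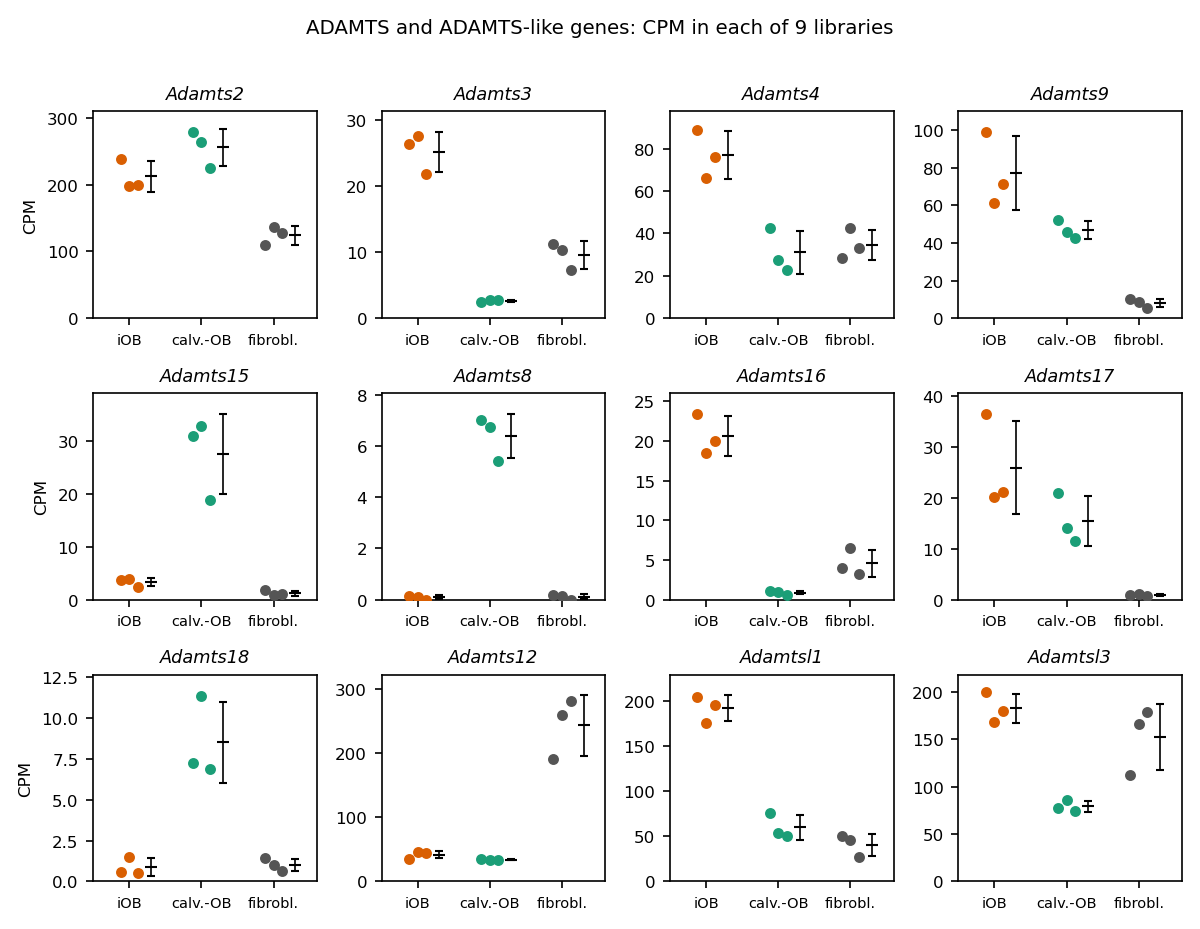
CPM (y axes, linear from 0) of 10 Adamts and 2 Adamtsl genes in iOB, calvarial-OB and fibroblasts; each point is 1 library, and the bar beside it gives the mean ± SD of 3. Adamts3 and Adamts16 are highest in iOB and lowest in calvarial-OB, Adamts8, Adamts15 and Adamts18 are highest in calvarial-OB, and Adamts12 is highest in fibroblasts.

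The ADAMTS-like proteins have no protease domain and are mostly found on microfibrils. Adamtsl1 had 204, 175 and 195 CPM in iOB, 75.7, 53.6 and 50.5 CPM in calvarial-OB and 49.8, 45.4 and 26.9 CPM in fibroblasts, with iOB above all others and calvarial-OB just above fibroblasts. It was higher in iOB than in fibroblasts (2.24 ± 0.22 SE, edgeR adjusted p = 6.94e-06) and than in calvarial-OB (1.68 ± 0.21, 5.64e-05). The smaller rise in calvarial-OB (0.56 ± 0.21, 0.0405) was lost without any of 6 libraries, fibroblast replicates 2 and 3, calvarial-OB replicate 1 and iOB replicates 1 to 3 (adjusted p = 0.0551, 0.151, 0.14, 0.0516, 0.0514 and 0.0561) and with the 2 groups fitted alone (0.0761). Adamtsl3 had 199, 168 and 179.6 CPM in iOB, 77.6, 85.8 and 74.6 CPM in calvarial-OB and 112, 165 and 179 CPM in fibroblasts, and calvarial-OB lay below all others (-0.94 ± 0.16 SE against fibroblasts, and 1.20 ± 0.16 in iOB against calvarial-OB, edgeR adjusted p = 0.000304 and 7.66e-05).

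Adamtsl5 had 25.7, 21.2 and 23.7 CPM in iOB, 17.8, 19.7 and 11.3 CPM in calvarial-OB and 10.8, 10.5 and 9.62 CPM in fibroblasts, and the 3 groups were separate with iOB highest. Against fibroblasts it was higher in iOB (1.19 ± 0.20 SE) and calvarial-OB (0.64 ± 0.20; edgeR adjusted p = 0.000443 and 0.0152). The calvarial-OB call was lost without fibroblast replicate 3 or calvarial-OB replicate 2 (0.054 and 0.0622), and the direct difference (0.55 ± 0.19, 0.032) without calvarial-OB replicate 3, iOB replicate 1 or iOB replicate 3 (0.0506, 0.103 and 0.0755), with upper-quartile scaling (0.0601) or with the 2 groups alone (0.0584). Adamtsl4, mutated in human lens displacement, averaged 52.2 ± 4.13 CPM in iOB, 49.4 ± 12.0 CPM in calvarial-OB and 66.5 ± 6.78 CPM in fibroblasts (SD, n = 3 each) and was called lower in calvarial-OB than in fibroblasts (-0.44 ± 0.16 SE, edgeR adjusted p = 0.0386). Adamtsl2, too low to test, had 4, 20 and 2 counts summed over iOB, calvarial-OB and fibroblasts.

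Among the inhibitors, Timp1, a soluble inhibitor of most secreted MMPs, had 456, 428 and 446 CPM in iOB, 239, 436 and 366 CPM in calvarial-OB and 243, 225 and 298 CPM in fibroblasts. The iOB libraries lay above all fibroblast libraries, and calvarial-OB spread over both. Timp1 was higher in iOB than in fibroblasts (0.79 ± 0.18 SE, edgeR adjusted p = 0.00417). In calvarial-OB it was 0.44 ± 0.18 and not called (0.0574), but it was with RLE size factors, upper-quartile scaling, no filter or DESeq2 (0.044, 0.0261, 0.0466 and 0.0313) and without fibroblast replicate 3 (0.57, 0.0311) or calvarial-OB replicate 1 (0.64, 0.000757). Between iOB and calvarial-OB it was 0.35 ± 0.18 and not called (0.129), but it was without calvarial-OB replicate 2 (0.57, 0.0218).

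Timp2, which inhibits Mmp2 and also helps Mmp14 activate it, had 1289, 1467 and 1400.0 CPM in iOB, 1047, 968 and 1033 CPM in calvarial-OB and 1376, 1552 and 1451 CPM in fibroblasts. Calvarial-OB lay below both other groups, which overlapped (-0.52 ± 0.10 SE in calvarial-OB against fibroblasts and 0.45 ± 0.10 in iOB against calvarial-OB, edgeR adjusted p = 0.000673 and 0.00253; -0.07 ± 0.10 in iOB against fibroblasts, 0.564). Timp3, a matrix-bound inhibitor that also blocks ADAMTS aggrecanases, had 982, 751 and 769 CPM in iOB, 445, 524 and 691 CPM in calvarial-OB and 821, 964 and 909 CPM in fibroblasts. It followed the same order (-0.70 ± 0.16 in calvarial-OB against fibroblasts, 0.59 ± 0.16 in iOB against calvarial-OB and -0.11 ± 0.16 in iOB against fibroblasts; edgeR adjusted p = 0.0029, 0.00958 and 0.623).

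Timp4, an inhibitor best known from heart and fat, had 2.57, 2.41 and 1.14 CPM in iOB, 4.11, 2.45 and 4.81 CPM in calvarial-OB and 0, 0.425 and 0.249 CPM in fibroblasts. Both cultures lay above all fibroblast libraries (3.26 ± 0.66 SE in iOB and 4.16 ± 0.59 in calvarial-OB, edgeR adjusted p = 0.00173 and 9.22e-05). The values were 2.65 and 3.55 without fibroblast replicate 1, and 3.88 and 4.74 without fibroblast replicate 2. Adipocyte markers, 1212, 1121 and 1827 CPM summed in calvarial-OB replicates 1 to 3, had the same order as Timp4 within that group. In iOB the library with the lowest adipocyte sum, 284 CPM against 340.4 and 338 CPM, had the most Timp4, and the part of these cells in the Timp4 result was not tested. The summed Timp level was 2616 to 2729.6 CPM in iOB, 1736 to 2095 CPM in calvarial-OB and 2440.0 to 2742 CPM in fibroblasts, so calvarial-OB were below the other groups.

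Cells sorted for GFP, the product of the Col2.3 promoter, were compared with fibroblasts by the authors. In the authors' deposited table for iOB GFP+ 21 members were higher, 10 lower and 17 not called at an adjusted p below 0.05, and 3 had no adjusted p. Beside this, 45.5% of all genes with an adjusted p in the authors' deposited table were called, 23.7% higher and 21.7% lower. In the authors' deposited table for unsorted iOB 17 members were higher, 5 lower and 25 not called, and 4 had no adjusted p, beside 34.9% of all genes called, 19.9% higher and 15.0% lower. Both tables are set against fibroblasts and may share fibroblast libraries, so their values are given side by side, and the difference between GFP+ and unsorted iOB was not tested.

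Mmp13 was 1.65 ± 0.38 (log2 fold change ± SE, adjusted p = 6.74e-05) in iOB GFP+ in the authors' deposited table, against -0.54 ± 0.18 (0.00815) in unsorted iOB. Adamts2 was 2.53 ± 0.24 (1.54e-25) in iOB GFP+ and 0.80 ± 0.14 (8.95e-08) in unsorted iOB in the authors' deposited tables. All 3 procollagen N-proteinases were called higher in iOB GFP+ in the authors' deposited table, beside 23.7% of all genes. Adamts3 was at 2.11 ± 0.27 (2.07e-13) and Adamts14 at 1.66 ± 0.36 (2.24e-05) there. Mmp13 was thus called in opposite directions in the sorted and unsorted cells, while Adamts14 was not called in unsorted iOB in the authors' deposited table (0.20 ± 0.21, 0.521).

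The largest rises in iOB GFP+ in the authors' deposited table were of Mmp20 (8.15 ± 0.92, adjusted p = 1.63e-17), Adamts17 (5.71 ± 0.29, 1.19e-86) and Adamts9 (4.75 ± 0.29, 2.17e-59). These 3 were also called higher in unsorted iOB in the authors' deposited table, at 6.76 ± 0.65, 4.54 ± 0.36 and 3.24 ± 0.23. Mmp20 had 0 counts in the fibroblast libraries of the count table, and its fitted values are no measure of size. Mmp8 was 3.87 ± 0.40 (1.94e-20) in iOB GFP+ and 2.42 ± 0.49 in unsorted iOB in the authors' deposited tables. Mmp1a, near 0 in the count table, was 3.99 ± 1.02 (0.000347) in iOB GFP+ in the authors' deposited table, with the counts behind it not analysed here. The base mean of Mmp1a there, a signal pooled over libraries, was 4.06. Adamtsl2, too low to test in the count table, was 2.98 ± 0.75 (0.000262) in the same authors' deposited table, with a base mean of 27.1.

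The 8 members lower in iOB than in calvarial-OB were picked by that result. In the authors' deposited table for iOB GFP+ against fibroblasts 45.5% of all genes with an adjusted p were called, 23.7% higher and 21.7% lower. Of the 8 members, 4 were called higher, 2 lower and 2 not called there. The higher ones were Adamts15 at 3.59 ± 0.45 (adjusted p = 2.99e-14), Adamts18 at 3.12 ± 0.66 (1.19e-05), Mmp16 at 2.24 ± 0.48 (1.73e-05) and Adamts10 at 0.83 ± 0.14 (1.27e-08). The lower ones were Adamts5 (-1.004 ± 0.15, 2.66e-10) and Adamts1 (-0.93 ± 0.27, 0.00184), and Adamts8 and Mmp27 were -0.32 ± 1.08 and 0.71 ± 0.82 and not called (0.843 and 0.519), all in the authors' deposited table. Adamts16, high in unsorted iOB, was 0.68 ± 0.55 in iOB GFP+ and not called in the authors' deposited table (0.332). Mmp9 was 1.28 ± 0.79 (0.181, not called) in the authors' deposited table for iOB GFP+ and 2.67 ± 0.57 (1.75e-05) in that for unsorted iOB. Mmp12 and Mmp3 are listed with no p-value in the authors' deposited table for iOB GFP+, at 3.17 ± 1.01 and -1.41 ± 0.96, as are 377 of its 17737 genes. These include 14 of 15 macrophage markers, at 2.18 to 4.72 in the authors' deposited table, while the last, Fcer1g, was called higher (4.84 ± 0.62, adjusted p = 9.61e-14). The part of macrophage RNA in the sorted cells' values of Mmp9 and Mmp12 was not tested.

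Of the 4 inhibitors 1 was higher, 2 were lower and 1 was not called in iOB GFP+ in the authors' deposited table. Of all genes there, 23.7% were higher and 21.7% lower. Timp1 was higher (1.75 ± 0.23, adjusted p = 5.91e-13) and Timp2 and Timp3 lower (-0.72 ± 0.12 and -0.96 ± 0.22, 6.29e-08 and 5.26e-05) in the authors' deposited table. Timp4 was 0.96 ± 1.05 (0.494, not called) in iOB GFP+ and 2.65 ± 0.56 (1.82e-05) in unsorted iOB in the authors' deposited tables. Mmp2 was 0.50 ± 0.10 (1.21e-06) and Mmp14 -0.03 ± 0.12 (0.889, not called) in the same authors' deposited table. Among the lower genes there were Mmp11 (-2.21 ± 0.34, 8.3e-10), Adamts12 (-1.88 ± 0.25, 1.46e-12) and Mmp19 (-1.76 ± 0.30, 2.54e-08), all values of the authors' deposited table.

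**Figure D5:**
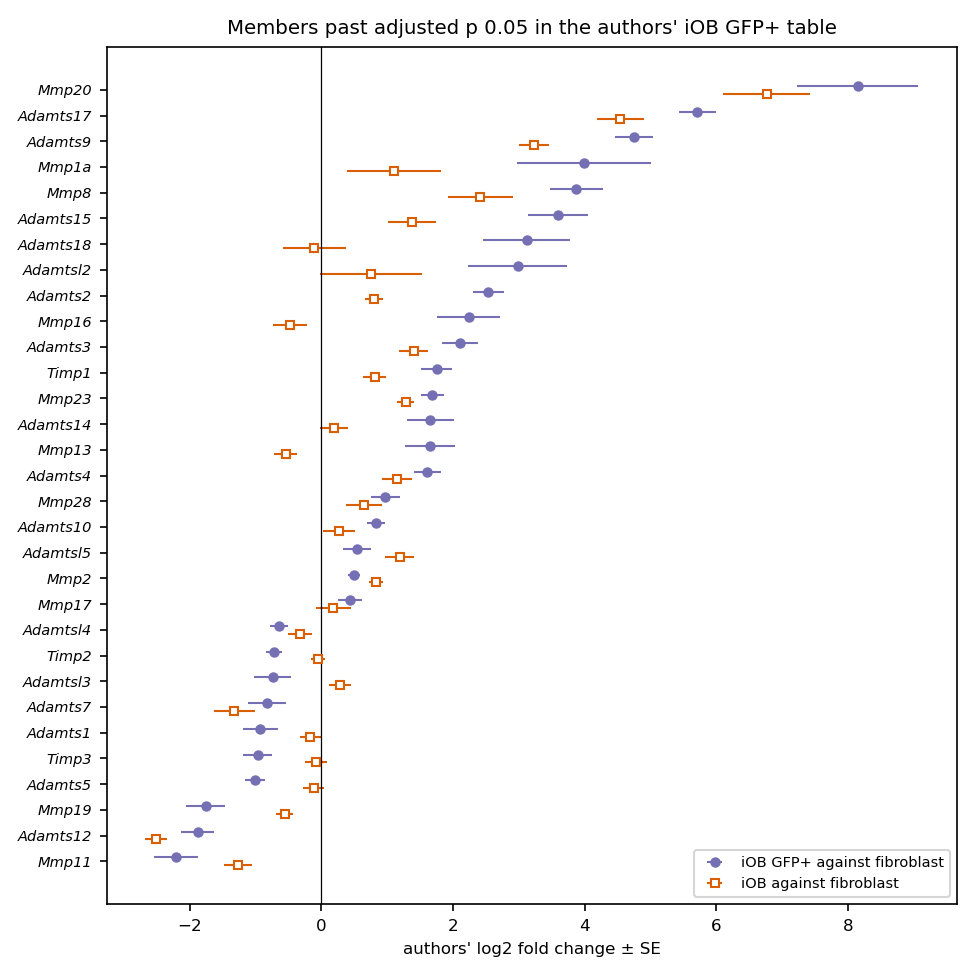
Log2 fold changes (x axis, bars of 1 SE) from the authors' deposited tables for the 31 members past an adjusted p of 0.05 in iOB GFP+ against fibroblasts (filled circles), with unsorted iOB against fibroblasts beside them (open squares). Genes run down the page from the highest to the lowest GFP+ value; Mmp13, Mmp16 and Adamts18 lie right of 0 in GFP+ and left of 0 in unsorted iOB, and Adamtsl3 the other way.

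Other genes of matrix turnover, from lists chosen by role, were counted in the same way. Of the other secreted matrix proteases 6 of 6 tested were higher in iOB and 5 of 6 in calvarial-OB than in fibroblasts, and none was lower, which is 100% and 83.3% called. All shares of these lists stand beside 43.3% of all tested genes called in iOB and 55.8% in calvarial-OB against fibroblasts. Htra3, a secreted serine protease, averaged 192 ± 8.18 CPM in iOB, 94.9 ± 22.4 CPM in calvarial-OB and 19.0 ± 2.36 CPM in fibroblasts (SD, n = 3 each), giving 3.35 ± 0.17 (SE) and 2.32 ± 0.17 (edgeR adjusted p = 9.57e-08 and 4.4e-07). Fap, a cell-surface protease that is also on the fibroblast marker list, was 2.56 ± 0.19 in iOB and 2.65 ± 0.19 in calvarial-OB (1.05e-06 and 3.97e-07). Htra4 in iOB was 5.81 ± 0.44 (1.1e-06).

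Of 9 tested regulators of MMPs 4 were higher and none lower in iOB, and 4 were higher and 2 lower in calvarial-OB, than in fibroblasts, or 44.4% and 66.7% called beside 43.3% and 55.8% of all tested genes. Pcsk6, a proprotein convertase, averaged 328 ± 23.7 CPM in iOB, 108 ± 17.8 CPM in calvarial-OB and 37.5 ± 3.64 CPM in fibroblasts (SD, n = 3 each), giving 3.13 ± 0.14 (SE) and 1.52 ± 0.13 (edgeR adjusted p = 4.44e-08 and 1.94e-06). Reck, a membrane-anchored inhibitor of MMPs, was 0.77 ± 0.15 in iOB (0.00125). Lrp1, the receptor that clears several of these proteases and TIMPs, was -1.42 ± 0.18 in calvarial-OB (3.28e-05). In the plasminogen system, which activates some MMPs, 3 of 6 tested genes were higher and 2 lower in iOB, and 3 higher and 3 lower in calvarial-OB, or 83.3% and 100% called. In calvarial-OB the plasminogen activators went opposite ways, with Plau at 3.00 ± 0.20 and Plat at -2.63 ± 0.13 (edgeR adjusted p = 2.67e-07 and 3.59e-08).

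Cysteine cathepsins and cystatins were higher for 5 of 8 tested genes in iOB, with none lower, and for 7 in calvarial-OB, with 1 lower, or 62.5% and 100% called beside 43.3% and 55.8% of all tested genes. Ctss, a cathepsin of macrophages and other antigen-presenting cells, was 6.68 ± 0.34 (SE) in iOB and 7.95 ± 0.35 in calvarial-OB against fibroblasts (edgeR adjusted p = 7.45e-08 and 1.69e-08), and it moved with the macrophage markers whose sums are given above; their part was not tested. Ctsk, the collagen-degrading cathepsin of osteoclasts, was 0.63 ± 0.13 in iOB (edgeR adjusted p = 0.00222). Among the substrates of the ADAMTS enzymes 3 of 8 tested were higher and 3 lower in iOB, and 2 higher and 3 lower in calvarial-OB, or 75.0% and 62.5% called. Vcan (versican) was -1.24 ± 0.14 in iOB and -2.21 ± 0.14 in calvarial-OB, Fbn1 (fibrillin, also a fibroblast marker) -2.08 ± 0.11 and -1.84 ± 0.11, and Comp 2.17 ± 0.25 and 1.74 ± 0.25 (edgeR adjusted p at most 0.000103). Of the procollagen C-proteinases and enhancers 2 of 4 tested were higher in iOB with none lower, and 2 higher and 2 lower in calvarial-OB, or 50% and 100% called. Of 8 tested ADAM sheddases 4 were higher and 2 lower in iOB, and 3 higher and 4 lower in calvarial-OB, or 75.0% and 87.5% called.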

How the data were processed

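Raw counts by gene symbol were deposited by the authors for 9 libraries. The authors' 2 tables of comparisons with fibroblasts give, per the file headers, log2 fold changes and their errors, the score of the test and its p-value before and after adjustment. They also give a base mean, which per the file headers is a signal pooled over libraries. Per the submitters' processing notes, STAR 2.4.2a, Bowtie2, DESeq2, R 3.2.2 and mm9 were used, without roles; how reads were counted, on which annotation and with which strand setting is not given in the sources used here, so reads of overlapping or near-identical genes (Mmp1a and Mmp1b) may have been divided.

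Counts were fitted with edgeR 4.0.16 (R 4.3.3): TMM scaling, filterByExpr, all 9 libraries, group as the only term, quasi-likelihood test, Benjamini-Hochberg adjustment over 13438 genes. The biological coefficient of variation was 14.8%. The SE is the absolute log2 fold change over the square root of F. CPM use TMM-scaled library sizes. Where a group had 0 counts, a floor of 3 counts over the group gives a lower bound; with 1 to 3 counts the ratio has a 95% Clopper-Pearson interval, counting error only. The method was tested on simulated data. Python 3.11.15 drew the figures (matplotlib 3.10.9). Alternatives were other scalings, no filter, DESeq2 1.42.0, pairs of groups alone, a replicate block, Rn45s left out and each library left out.

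The members, the lists and the rule for named genes (values in every library for members called in a comparison with a mean of at least 5 CPM in a group, up to 30 by size of change, plus the Timp genes, Mmp2, Mmp9, Mmp13 and Mmp14) were chosen with earlier results of these data known. Promoter sequences are from RefSeq, where 36 of 51 members had an entry. The methylation windows and the bone chip libraries were not used here. One gene of a further list is not reported here.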

Additional observations from a re-analysis of the deposited data

Results flagged for a closer look

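Adamts16 went opposite ways in the 2 osteoblast cultures: it was higher in iOB (2.20 ± 0.25 SE) and lower in calvarial-OB (-2.35 ± 0.33) than in fibroblasts, and the direct log2 difference of iOB to calvarial-OB was 4.55 (edgeR adjusted p = 5.72e-07). Adamts3 did the same (1.40 ± 0.18 and -1.87 ± 0.21), with a direct log2 difference of 3.27 (edgeR adjusted p = 3.79e-07). In both, all 3 iOB libraries were above, and all 3 calvarial-OB libraries below, every fibroblast library.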

How the results depend on the processing

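The counts of members called stayed within 1.5 times under all 17 alternatives. Over single libraries left out, members higher and lower numbered 17 to 21 and 4 to 6 in iOB against fibroblasts, 14 to 18 and 12 to 16 in calvarial-OB against fibroblasts, and 15 to 22 and 7 to 9 in iOB against calvarial-OB. Of 1729 values of the 34 named members, 1650 stayed on their side of the threshold, 42 lost and 37 gained a call, and no called value turned direction; 10 of 74 calls were lost somewhere.

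Replicate numbers did not pair the libraries (correlations of deviations -0.146 to 0.147). With a replicate block, members higher and lower were 20 and 5, 17 and 15, and 19 and 8 in the 3 comparisons in the order above, and Mmp27 (1.40, edgeR adjusted p = 0.0459, iOB against fibroblasts) and Mmp12 (0.71, 0.0139, iOB against calvarial-OB) were called.

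Upper-quartile scaling moved the median log2 fold change of all genes to 0.10 in calvarial-OB against fibroblasts and -0.11 in iOB against calvarial-OB, and the share of higher among called genes to 58.1% and 43.5%, beside 50.9% and 50.6%. Leaving out fibroblast replicate 1 and calvarial-OB replicate 1 together, chosen after seeing the data, gave 21 and 5, 18 and 16, and 22 and 8. Depth limits Mmp20, Adamts8 and Adamts13, which rest on groups of 0 to 3 counts, and left 9 members untested. Fits without 1 library leave that group 2 libraries.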
